A study of Mus musculus with 9 samples.

Results

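The comparison described here sets NAT against P7C3-A20, both given at 3 µM to cultured mouse neural stem cells, with 3 RNA sequencing libraries for each compound. Its members are the gene rows with at least 1 TPM (a read count divided by gene length and scaled to the same total in each library) in at least 3 of these 6 libraries. Of 23420 rows, 13614 passed. A further 4484 rows were listed at 0 in all 6 libraries, and 5322 were above 0 but missed the minimum. All 6 libraries reached 1 TPM in 12927 of the members, while 19 members reached it in the 3 NAT libraries and no P7C3-A20 library and 14 the other way round. Just inside the minimum lay Il17c, 4930414N06Rik and 4930430F21Rik, whose third-highest TPM was 1.0013, 1.0014 and 1.0015. Just outside lay Lrrc32, Ankrd34a and Bspry, at 0.99993, 0.99634 and 0.99508.

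The cells came from the hippocampus of wild-type C57BL/6J mice aged 2 days. They were expanded and then moved to a medium lacking bFGF and EGF, the growth factors that keep stem cells dividing, and received NAT, P7C3-A20 or the vehicle DMSO there. All 3 groups therefore shared strain, age and growth factor withdrawal, and the 3 DMSO libraries serve below to place a level and, in the fits, to estimate the spread between libraries. Replicates are labelled biological, but whether each came from its own culture or animal is not stated, so the tests measure the spread between these libraries. The duration of treatment is not given in the sources used here.

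P7C3-A20 is an aminopropyl carbazole known for favouring the survival of newborn hippocampal neurons, and it has been reported to act through NAMPT, which catalyses the limiting step in recycling nicotinamide to NAD. NAT is described only as a small molecule, and its structure is not given here. Hippocampal stem cells deprived of growth factors leave the cell cycle over time and give rise to neurons, astrocytes and oligodendrocytes. Changes between such cultures can therefore be read in genes of cell division, of each lineage, and in the immediate early genes that follow signalling within minutes.

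The cultures expressed markers of neural stem cells and of the lineages they form, which does not set stem cells apart from a mixed culture. Nes, Sox2, Fabp7, Vim, Hes5 and Slc1a3, which mark neural stem cells, summed to 18220 to 18690 TPM with NAT and 17250 to 18150 with P7C3-A20. The sums of 5 astrocyte markers were 3075 to 3236 and 2893 to 3109. Those of 6 oligodendrocyte lineage markers were 3026 to 3212 and 3158 to 3702, and those of 6 neuron markers 736 to 779 and 717 to 770. Of 12 microglia and macrophage markers 2 passed the minimum, the list summed to 8.33 to 10.4 TPM with NAT and 9.25 to 10.2 with P7C3-A20, and Cx3cr1, C1qc, Trem2, Ctss and Tyrobp were at 0 in all 6 libraries. The endothelial markers Cldn5 and Cdh5 and the 4 haemoglobin genes were also at 0 in all 6. Whole reads recovered from the TPM steps came to 12994081 to 13803959 with NAT and 15885313 to 17217584 with P7C3-A20, so that depth moved with the compound. Gene levels also followed GC content (the share of G and C bases in a transcript) differently in each library. The slopes, in log2 units per 10 percentage points of GC over 11281 genes, were -0.07, 0.00 and -0.03 in NAT replicates 1, 2 and 3. For P7C3-A20 they were 0.02, 0.04 and 0.12, and replicate 3 had the steepest slope of the 9 libraries. For that reason many gene lists and single genes are also given after each library's GC trend was removed. Several lists are also given without P7C3-A20 replicate 3.

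**Figure D1:**
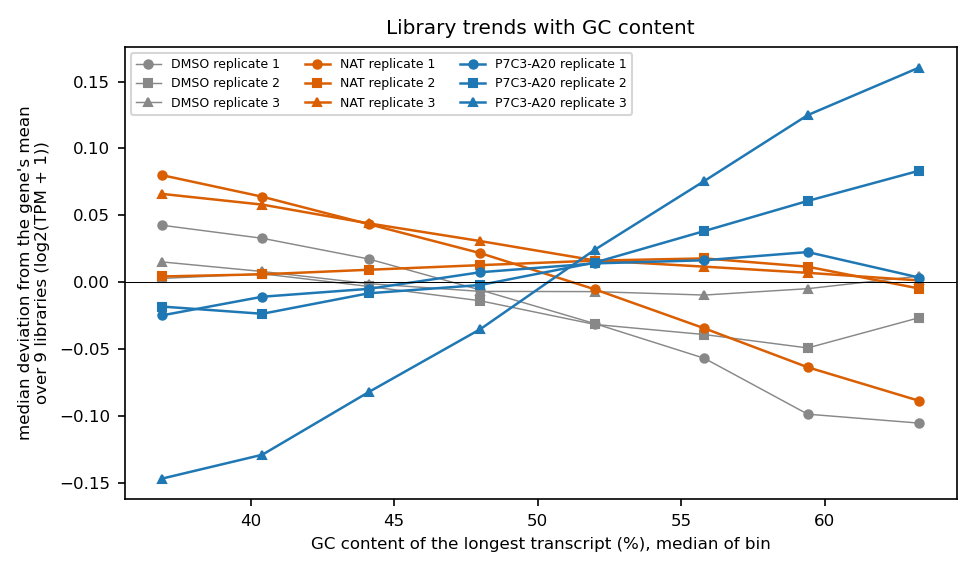
Library trends with GC content. The x axis gives the GC content of a gene's longest transcript in percent, the y axis the median deviation of log2(TPM + 1) from the gene's mean over the 9 libraries, and each line is 1 library. P7C3-A20 replicate 3 runs from below 0 at low GC to above 0 at high GC, with the steepest slope of 0.12 per 10 percentage points, while the NAT lines are flat or fall.

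Across the whole transcriptome the compounds gave close expression levels. In the limma-trend fit of log2(TPM + 1), no gene of 13614 was called at an adjusted p of 0.05 (0%), and the lowest adjusted p was 0.164. At an unadjusted p of 0.05, 2174 of the 13614 genes passed, a larger share than 0.05, with 1366 higher and 808 lower with NAT. The difference, NAT minus P7C3-A20, had a median of 0.01 on the log2 scale, with 5th and 95th percentiles of -0.20 and 0.21. For 12604 genes (92.6%) the 95% interval of the difference lay within a 1.5-fold change either way. With the GC trends removed, again no gene of 13485 was called, with a lowest adjusted p of 0.0894 and 12551 genes (93.1%) within 1.5-fold. At an unadjusted p of 0.05, 1592 of the 13485 genes then passed, again a larger share than 0.05, with 790 higher and 802 lower. Before the removal the difference followed GC content across genes with a Spearman rho of -0.476, and after it with -0.0177, a description over genes measured in the same 6 libraries.

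A count-based fit was less conservative. limma's voom on the recovered reads called 271 genes, 143 higher with NAT (1.05% of those tested) and 128 lower (0.94%). With GC trends removed it called 61, 35 higher (0.26%) and 26 lower (0.193%), of which 49 were among the 271. These counts depended on single libraries. The count of 271 became 6 without NAT replicate 1, 107 without NAT replicate 2, 4 without NAT replicate 3, 97 without DMSO replicate 2, 79 without P7C3-A20 replicate 3 and 760 without P7C3-A20 replicate 1. The count of 61 became 6, 2 and 8 without NAT replicates 1, 2 and 3, 37 without DMSO replicate 2 and 168 without P7C3-A20 replicate 1. Independently of any model, the 3 NAT libraries lay above all 3 P7C3-A20 libraries for 1830 genes (13.4%) and below them for 1142 (8.39%). A voom call below is named as such, and no gene was called by limma-trend in either of these fits.

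**Figure D2:**
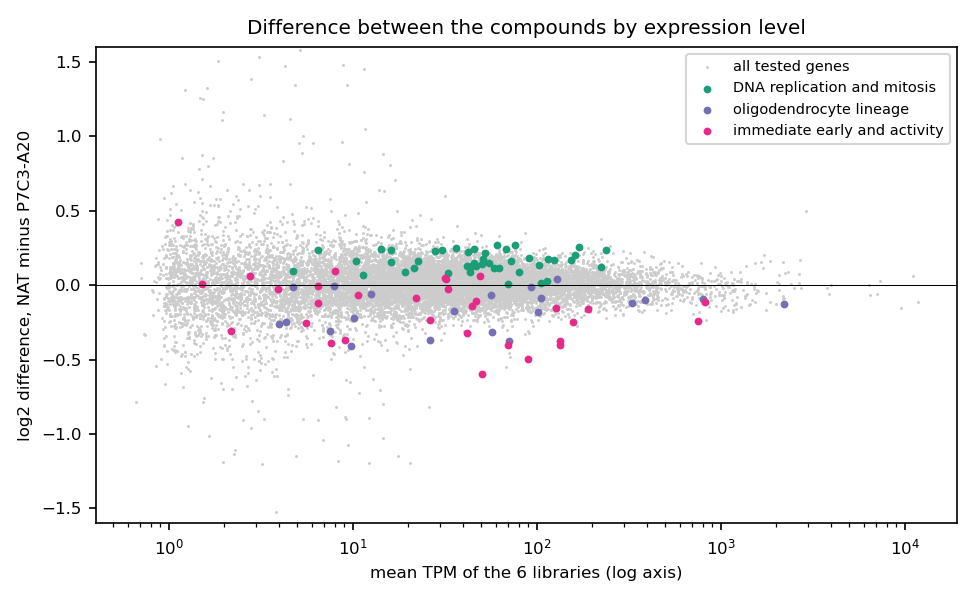
Difference between the compounds by expression level. The x axis is the mean TPM of the 6 libraries on a log axis, the y axis the log2 difference of TPM + 1, NAT minus P7C3-A20, and each point is 1 tested gene; 15 genes lie beyond the axis limits of 1.6. Cell division genes sit on or above the zero line, most oligodendrocyte and immediate early genes below it.

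The largest differences came from rows with almost no reads. Of the 48 genes that differed more than 2-fold, 43 were microRNA or small nucleolar RNA rows, and all 48 had under 100 reads over the 6 libraries together, with a median of 9. Of the 125 genes beyond 1.5-fold, 115 had under 100 reads. The replication-dependent histone gene Hist2h2ac, which had the lowest p in the TPM fit among the named genes, held 3, 5 and 4 reads in the NAT libraries and 1, 1 and 0 in the P7C3-A20 libraries. Its voom adjusted p was 0.0395, and 0.0398 with GC trends removed. Rows with so few reads are not described further.

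The genes of 28 lists, 507 tested genes in all, were compared as groups by the counts and medians of their members. Over all 13614 tested genes, 7367 were higher and 6247 lower with NAT, with a median of 0.01. Mitosis genes (median 0.17) and DNA replication genes (0.16) stood at the high end, and myelinating oligodendrocyte genes (-0.22), immediate early genes (-0.14) and oligodendrocyte precursor genes (-0.10) at the low end. Apart from a list of 9 structural and long non-coding RNAs, at -0.11, the other lists had medians between -0.08 and 0.08. Only Ctgf and Calb2 among the 507 passed the minimum through 1 compound alone.

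**Figure D3:**
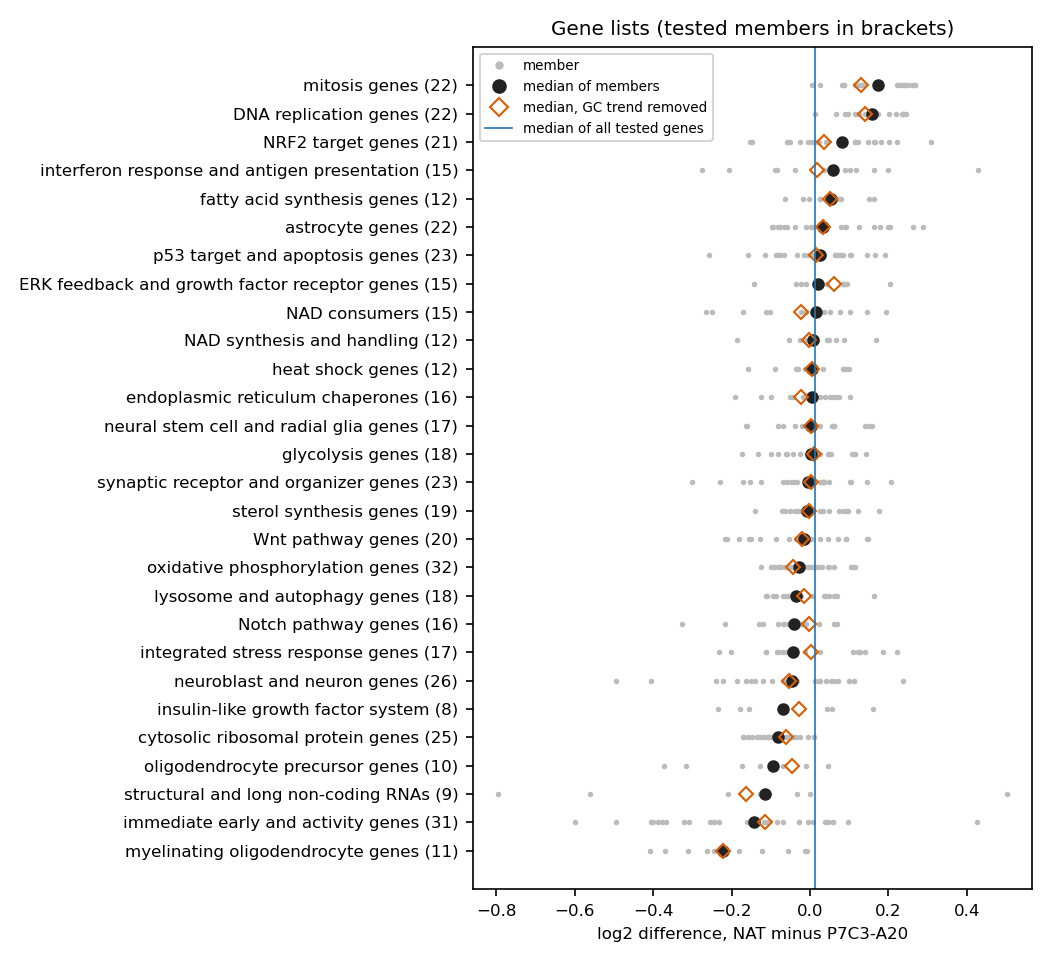
Differences within gene lists. The x axis is the log2 difference, NAT minus P7C3-A20; each grey point is 1 tested member, black circles are list medians, open diamonds the medians with GC trends removed, and the line is the median of all tested genes, 0.01. All members of the mitosis and DNA replication lists lie above 0, and all 11 members of the myelinating list lie below 0.

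Genes of mitosis were higher with NAT in all 22 tested members, by small amounts. Their log2 differences ran from 0.00 to 0.27 with a median of 0.17, which was 0.13 with GC trends removed and 0.14 without P7C3-A20 replicate 3. In 16 of the 22 the NAT libraries lay above every P7C3-A20 library, against 13.4% of all tested genes, and in none below. None passed limma-trend, voom called 8 of them, and 3 remained with GC trends removed. Voom called none without NAT replicate 1 or NAT replicate 3, 3 without NAT replicate 2, 4 without DMSO replicate 2, P7C3-A20 replicate 2 or P7C3-A20 replicate 3, and 8 or 9 without any other. With GC trends removed the 3 became 0 without any 1 of the NAT libraries or P7C3-A20 replicate 2, 1 without DMSO replicate 2, and 2 to 5 otherwise.

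Cenpf, a kinetochore protein of dividing cells, was at 68.2, 64.0 and 67.8 TPM with NAT in replicates 1, 2 and 3 and at 59.1, 55.7 and 50.9 with P7C3-A20. The DMSO libraries, at 68.4, 63.5 and 59.9, all lay above those of P7C3-A20. Its log2 difference was 0.27 ± 0.06 (SE), or 0.20 with GC trends removed, with a voom adjusted p of 0.00967 that ranged from 0.00243 to 0.0979 as single libraries were left out. Kif11, the kinesin motor that pushes spindle poles apart, was at 87.0, 79.4 and 83.9 TPM with NAT and 72.0, 71.2 and 64.1 with P7C3-A20, a log2 difference of 0.27 ± 0.06 with a voom adjusted p of 0.0114. The proliferation marker Mki67 was at 191, 177 and 184 TPM with NAT, 167, 151 and 143 with P7C3-A20 and 196, 174 and 162 with DMSO. The compounds again did not overlap, and the DMSO libraries reached from among those of P7C3-A20 to above those of NAT. Its difference was 0.26 ± 0.07, with a 95% interval of 0.11 to 0.41 and a voom adjusted p of 0.0186. Top2a, the topoisomerase that untangles chromosomes before division, was at 269, 252 and 256 TPM with NAT and 230.5, 222 and 208 with P7C3-A20, a difference of 0.23 ± 0.06 called by voom (adjusted p 0.0265) but not with GC trends removed (adjusted p 0.088). The spindle genes Nusap1, Kif20a, Aspm and Cenpe were the other members called by voom, with differences of 0.24, 0.25, 0.24 and 0.22, and none of the 4 was called with GC trends removed. At the other end, the mitotic kinase gene Plk1 and the anaphase activator gene Cdc20 differed by 0.00 ± 0.06 and 0.03 ± 0.05, with libraries of both compounds interleaved.

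DNA replication genes were likewise higher with NAT in 22 of 22, with a median difference of 0.16, which was 0.14 with GC trends removed and 0.16 without P7C3-A20 replicate 3. NAT libraries lay wholly above P7C3-A20 libraries in 13 of them, against 13.4% of all tested genes, and wholly below in none. Voom called 1, the replicative polymerase gene Pole, and it called 2 without DMSO replicate 1, 3 without DMSO replicate 3, 1 without P7C3-A20 replicate 1 and 0 without any other library. With GC trends removed it also called 1, which became 3 without DMSO replicate 1 or 3, stayed 1 without P7C3-A20 replicate 1 and was 0 without any other library. Both division lists kept 20 or more members higher with NAT in each of 51 fits that varied the scaling, filter or library set, with medians of 0.12 to 0.17 for replication and 0.11 to 0.20 for mitosis. The summed neural stem cell markers given above were also higher with NAT, but highest with DMSO, at 18830 to 19260 TPM. Most of the sum was Fabp7, whose libraries overlapped, at 11750, 11170 and 11320 TPM with NAT and 11240, 10920 and 10640 with P7C3-A20. Its difference was 0.06 ± 0.04, and -0.01 with GC trends removed. Slc1a3 lay wholly higher with NAT, Hes5 wholly lower, and Nes, Sox2 and Vim overlapped. Depth was lower with NAT. The part of depth and of these markers in the differences was not tested. Voom called 6 mitosis genes and 0 replication genes after all libraries were thinned to the depth of the shallowest. In bulk RNA, more dividing cells and more of these transcripts per cell cannot be told apart.

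Replication origins are licensed by the MCM helicase, whose subunits are encoded by Mcm2 to Mcm7 and whose genes are textbook targets of E2F factors. Mcm3 was at 55.2, 59.9 and 55.1 TPM with NAT, 48.3, 47.8 and 49.7 with P7C3-A20 and 53.3, 50.1 and 43.2 with DMSO, so that the compounds did not overlap and DMSO replicate 3 was the lowest of the 9. The difference was 0.22 ± 0.07, and 0.24 with GC trends removed. Mcm6, at 77.98, 75.5 and 75.7 TPM with NAT and 68.9, 68.1 and 67.6 with P7C3-A20, differed by 0.16 ± 0.05. Mcm7 was near equal, at 104, 105 and 109.5 against 102, 104 and 110.3 TPM. The ribonucleotide reductase subunit gene Rrm2 stood at 176, 167 and 177 TPM with NAT, 153, 157 and 143 with P7C3-A20 and 158, 146 and 128 with DMSO, a difference of 0.20 ± 0.07 between the compounds. Pole was at 17.4, 17.2 and 18.0 TPM with NAT and 15.7, 14.03 and 14.5 with P7C3-A20, a difference of 0.24 ± 0.07 with a voom adjusted p of 0.043. Uhrf1, which maintains DNA methylation behind the fork, was at 55.5, 53.2 and 54.4 against 48.1, 47.9 and 48.3 TPM, with 0.17 ± 0.05.

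Of the 22 replication genes 17 had a promoter in the RefSeq table for GRCm38.p6, and in the 250 bases before the start 4 of them (Cdc6, Mcm5, Mcm6 and Mcm7) held an E2F motif, searched on both strands as TTTGGCGC or TTTCCCGC. Among all 32851 promoters 1.3% held one, and none of the 17 mitosis genes with a promoter did. The Mcm6 promoter, shown because it held the motif in 2 places, lies on the minus strand at chr1:128359706-128359955, with the motif in capitals.
Mcm6: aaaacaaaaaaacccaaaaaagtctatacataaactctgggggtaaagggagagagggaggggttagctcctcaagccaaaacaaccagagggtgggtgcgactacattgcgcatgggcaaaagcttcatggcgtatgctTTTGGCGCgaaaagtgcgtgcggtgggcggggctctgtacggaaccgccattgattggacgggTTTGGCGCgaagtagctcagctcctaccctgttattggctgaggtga
The motif began 110 and 47 bases before the start. A match in these letters describes the sequence and says nothing of binding in these cells.

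**Figure D4:**
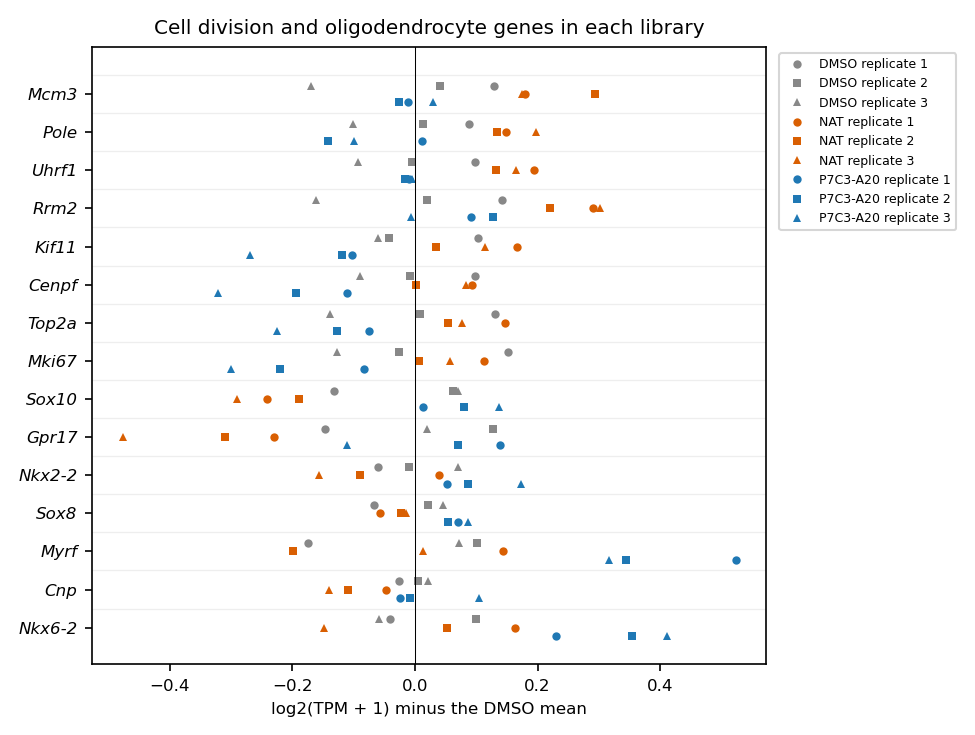
Cell division and oligodendrocyte genes in each library. The x axis is log2(TPM + 1) minus the mean of the 3 DMSO libraries, and each symbol is 1 library of DMSO, NAT or P7C3-A20. For the 8 division genes the NAT symbols lie to the right of the P7C3-A20 symbols, and for Sox10, Gpr17, Nkx2-2, Sox8, Myrf, Cnp and Nkx6-2 to the left, without overlap.

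Outside the lists, 3 further genes with roles in chromosomes or the spindle ranked among those of lowest p. Atad2, a chromatin ATPase with a bromodomain, was at 27.4, 26.7 and 27.3 TPM with NAT, 19.5, 21.1 and 17.5 with P7C3-A20 and 24.0, 23.4 and 19.4 with DMSO. Every NAT library was above all the others. The difference was 0.47 ± 0.09 (95% interval 0.28 to 0.66), and 0.39 with GC trends removed. Voom called Atad2 whichever single library was left out, with adjusted p-values of 0.000158 to 0.0191. With GC trends removed it called Atad2 in 8 of 9 such refits, with adjusted p-values of 0.000334 to 0.0564. Haus6, a subunit of the augmin complex that nucleates spindle microtubules, was at 21.0, 20.7 and 20.1 TPM with NAT and 15.8, 16.3 and 15.5 with P7C3-A20, with DMSO between them at 20.1, 18.8 and 19.4. Its difference was 0.36 ± 0.05, with a voom adjusted p of 0.00967. Lig1, the ligase that joins lagging-strand fragments, was at 60.2, 59.2 and 61.5 TPM with NAT and 52.1, 50.2 and 54.3 with P7C3-A20, a difference of 0.20 ± 0.04 with a voom adjusted p of 0.0439. The nuclear import receptor gene Tnpo1 was at 199.9, 190.3 and 196 against 170.3, 173 and 159 TPM, a difference of 0.22 ± 0.04. With GC trends removed the difference was 0.14, and the voom adjusted p went from 0.00967 to 0.061.

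Oligodendrocyte lineage genes ran the other way. Of the 10 tested precursor genes 9 were lower with NAT, with a median difference of -0.10, which was -0.05 both with GC trends removed and without P7C3-A20 replicate 3. All 11 tested myelinating genes were lower, with a median of -0.22, which was -0.22 with GC trends removed and -0.26 without P7C3-A20 replicate 3. NAT libraries lay wholly below P7C3-A20 libraries in 4 of the 10 and 6 of the 11, against 8.39% of all tested genes, and above in none. Voom called 2 precursor and 3 myelinating genes lower with NAT, and 2 and 1 with GC trends removed. The precursor count became 1 without NAT replicate 1, 0 without NAT replicate 3 and 5 without P7C3-A20 replicate 1. The myelinating count became 1 without NAT replicate 1 and 0 without NAT replicate 2 or 3. With GC trends removed the precursor count became 0 without NAT replicate 2 or 3 and 1 without NAT replicate 1 or P7C3-A20 replicate 2. The myelinating count there became 0 without any 1 of the NAT libraries, 2 without DMSO replicate 1 or 3 and 4 without P7C3-A20 replicate 3. With both GC trends and P7C3-A20 replicate 3 removed the precursor list split evenly, 5 against 5.

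Sox10, a transcription factor of the oligodendrocyte lineage, was at 50.6, 52.5 and 48.8 TPM with NAT, 60.5, 63.5 and 66.0 with P7C3-A20 and 54.6, 62.6 and 63.0 with DMSO. The NAT libraries were the 3 lowest of the 9. The difference was -0.32 ± 0.06 (95% interval -0.45 to -0.19), -0.23 with GC trends removed, with voom adjusted p-values of 0.00502 before and 0.0286 after. Gpr17, a receptor of precursors that are about to differentiate, was at 66.5, 62.9 and 55.9 TPM with NAT, 86.2, 82.2 and 72.4 with P7C3-A20 and 70.5, 85.5 and 79.3 with DMSO. The NAT libraries were again the 3 lowest, and the DMSO libraries overlapped with those of P7C3-A20. Its difference was -0.37 ± 0.08, with voom adjusted p-values of 0.00263 and, with GC trends removed, 0.00964. The lineage factors Olig1 and Olig2 differed by -0.13 ± 0.06 and -0.09 ± 0.04 with overlapping libraries, and with GC trends removed by -0.04 and -0.02. The precursor receptor gene Pdgfra differed by -0.01 ± 0.06. Of the other lineage factors, Nkx2-2 was at 36.0, 32.9 and 31.3 against 36.3, 37.2 and 39.6 TPM and Sox8 at 369, 378 and 379.7 against 402, 398 and 407, without overlap and without a call.

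Among the later genes, Myrf, the transcription factor that switches on myelin genes, was at 9.32, 7.13 and 8.42 TPM with NAT, 12.4, 10.8 and 10.6 with P7C3-A20 and 7.28, 9.02 and 8.82 with DMSO. Here P7C3-A20 stood above both other groups, which overlapped. The difference was -0.41 ± 0.11, and the voom adjusted p went from 0.0102 to 0.0547 with GC trends removed. Bcas1, expressed as precursors turn into myelinating cells, was at 23.3, 24.6 and 20.2 against 33.7, 30.6 and 25.0 TPM, a difference of -0.37 ± 0.14 with a voom adjusted p of 0.0415, and 0.0739 with GC trends removed. Mbp, the myelin basic protein gene, was at 3.66, 4.30 and 3.70 against 4.78, 4.94 and 4.62 TPM, Nkx6-2 at 7.34, 6.73 and 5.72 against 7.74, 8.53 and 8.91 and Cnp at 329, 315 and 309 against 334, 338 and 366, all without overlap and none called. Tspan2 and Mal differed by -0.01 and -0.01. Tubb4a, a tubulin abundant in myelinating cells and neurons, was lower with NAT as well, at 37.1, 35.1 and 36.1 against 44.2, 46.04 and 44.8 TPM, a difference of -0.31 ± 0.05 with a voom adjusted p of 0.00967. The 5 myelinating genes that missed the minimum are not counted. Summed over 5 lineage markers (Olig1, Olig2, Sox10, Pdgfra and Mbp), the NAT libraries held 2926 to 3121 TPM, those of P7C3-A20 3053 to 3585 and those of DMSO 3088 to 3218. The sums of the compounds overlapped. Most of the sum was Olig1, at 2007, 2115 and 2179 TPM with NAT and 2105, 2260 and 2530 with P7C3-A20. Sox10 and Mbp, which did not overlap, added little to it, so the sum does not describe the lineage as a whole.

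Immediate early and activity genes were mostly lower with NAT, in 24 of 31 tested members. The median difference was -0.14, which was -0.11 with GC trends removed and -0.13 without P7C3-A20 replicate 3, and it stayed between -0.21 and -0.08 in the 51 fits. NAT libraries lay wholly below P7C3-A20 libraries in 14 of the 31, against 8.39% of all tested genes, and wholly above in 2, against 13.4%. The 2 include Ctgf, which passed the minimum through NAT alone, so that its libraries could not overlap. Voom called 10 of the 31 lower with NAT, against 0.94% of all tested genes, and none higher. With GC trends removed it called 6 lower, against 0.193%. The 10 became 3 without NAT replicate 1, 3 without NAT replicate 3 and 6 without P7C3-A20 replicate 2, and the 6 became 1, 0 and 3 without NAT replicates 1, 2 and 3 and 3 without P7C3-A20 replicate 2. The list is rich in G and C, with a median of 54% against 49.7% over all tested genes.

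Among the AP-1 subunits, Fosb was at 74.5, 68.6 and 78.3 TPM with NAT, 98.9, 96.3 and 119 with P7C3-A20 and 132, 111 and 145 with DMSO. The NAT libraries were the lowest and the DMSO libraries the highest, with P7C3-A20 between them apart from an overlap of its replicate 3 with DMSO replicate 2. The difference was -0.49 ± 0.10 (95% interval -0.71 to -0.28), and -0.44 with GC trends removed. Voom called Fosb whichever single library was left out, with adjusted p-values of 0.000158 to 0.0191. With GC trends removed it called Fosb in 8 of 9 such refits, with adjusted p-values of 0.000201 to 0.076. Its partner gene Fos, among the more abundant of the list, was at 660.0, 688 and 713 TPM with NAT, 821, 812 and 807 with P7C3-A20 and 894, 724 and 910.5 with DMSO, a difference of -0.24 ± 0.07 between the compounds with a voom adjusted p of 0.0114. Junb was at 112, 120.4 and 117 TPM with NAT and 147, 164 and 143 with P7C3-A20. It differed by -0.38 ± 0.09, and by -0.29 with GC trends removed, where its voom adjusted p was 0.0438. Jund and Jun differed by -0.24 ± 0.07 and -0.16 ± 0.06, called by voom before GC removal (adjusted p 0.0186 and 0.0403) and not after (adjusted p 0.143 and 0.296). The subunit gene Fosl2 did not follow, at 6.39, 6.81 and 6.18 against 6.13, 6.70 and 6.63 TPM.

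The orphan nuclear receptor gene Nr4a1, which responds to many stimuli within minutes, was at 39.2, 37.0 and 44.4 TPM with NAT, 59.4, 59.6 and 64.7 with P7C3-A20 and 61.7, 43.6 and 70.7 with DMSO. The compounds did not overlap, but DMSO replicate 2 lay among the NAT libraries. Its difference of -0.60 ± 0.14 (95% interval -0.90 to -0.30) was the widest among the voom-called genes of the list. Voom called Nr4a1 whichever library was left out, at adjusted p-values of 2.8e-05 to 0.039. With GC trends removed its call was lost without NAT replicate 2, like those of the rest of the list. Nr4a3 was lower too, at 2.06, 1.73 and 1.74 against 2.86, 2.22 and 2.49 TPM, whereas Nr4a2 stood at 8.56, 7.73 and 8.61 against 8.05, 7.84 and 7.20. Ier2, a nuclear protein gene induced by serum, was at 107, 116 and 123 TPM with NAT, 147, 147 and 164 with P7C3-A20 and 160.0, 136 and 164 with DMSO. No NAT library overlapped with any other, and the difference was -0.40 ± 0.07, with voom adjusted p-values of 0.000433 to 0.0374 over the left-out libraries. With GC trends removed voom called Ier2 in 7 of 9 such refits, with adjusted p-values of 0.00134 to 0.109. Zfp36, whose protein degrades inflammatory and growth-related mRNAs, was at 54.7, 60.5 and 63.9 TPM with NAT, 73.8, 86.3 and 77.9 with P7C3-A20 and 79.3, 61.7 and 83.8 with DMSO, a difference of -0.40 ± 0.10 with a voom adjusted p of 0.00967. Btg2, an antiproliferative gene, was at 125, 119 and 117 TPM with NAT, 134, 133 and 135 with P7C3-A20 and 162, 147 and 163 with DMSO, so that the 3 groups did not overlap. Its difference of -0.15 ± 0.04 was called by voom (adjusted p 0.0394) but not with GC trends removed (adjusted p 0.0547). Of the zinc finger factors, Egr3 was at 7.46, 7.91 and 8.17 against 10.9, 10.8 and 9.55 TPM, a difference of -0.37 ± 0.11, and Egr1, the most abundant, at 771, 777 and 817 against 839, 855 and 866, a difference of -0.11 ± 0.05 that was -0.05 with GC trends removed. Cyr61, a matrix signalling protein gene, was at 31.8, 40.3 and 39.4 against 48.7, 49.8 and 41.2 TPM and called by voom (adjusted p 0.0449) but not with GC trends removed (adjusted p 0.1). Its relative Ctgf was the member furthest above 0, at 1.52, 1.44 and 1.36 TPM with NAT against 0.868, 0.872 and 0.722 with P7C3-A20, close to the minimum of 1 TPM. Atf3, Ier3, Klf10 and Dusp5 differed by 0.06, 0.04, 0.05 and -0.07, all with overlap.

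**Figure D5:**
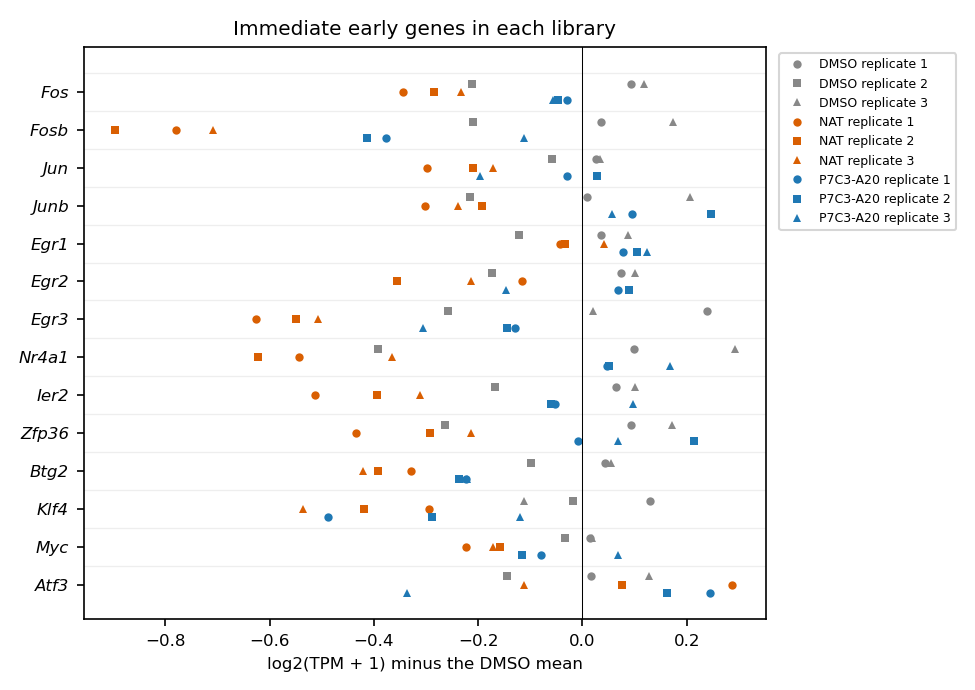
Immediate early genes in each library. The x axis is log2(TPM + 1) minus the mean of the 3 DMSO libraries, and each symbol is 1 library of DMSO, NAT or P7C3-A20. NAT symbols lie to the left of all P7C3-A20 symbols for Fos, Fosb, Junb, Egr1, Egr3, Nr4a1, Ier2, Zfp36, Btg2 and Myc, while Jun, Egr2, Klf4 and Atf3 overlap.

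Many immediate early genes carry a cAMP response element, bound by CREB, or a CArG box, bound by SRF, near their start. Of the 31 tested members 23 had a promoter in the RefSeq table. In the 250 bases before the start 3 (Btg2, Dusp1 and Maff) held the full cAMP response element TGACGTCA, which reads the same on both strands, and 3 others (Dusp5, Egr2 and Zfp36) held a CArG box. Among all 32851 promoters these motifs were held by 1.55% and 1.47%. The promoters of Btg2 and Zfp36, the members of each group with a voom call, are shown with the motif in capitals. Both lie on the minus strand, Btg2 at chr1:134079156-134079405 with the element beginning 166 bases before the start, and Zfp36 at chr7:28379229-28379478 with the CArG box beginning 58 bases before it.
Btg2: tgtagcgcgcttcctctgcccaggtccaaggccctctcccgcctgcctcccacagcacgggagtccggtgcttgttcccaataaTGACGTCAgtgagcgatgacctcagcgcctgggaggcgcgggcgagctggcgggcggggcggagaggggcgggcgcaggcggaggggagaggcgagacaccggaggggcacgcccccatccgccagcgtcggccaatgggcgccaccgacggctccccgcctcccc
Zfp36: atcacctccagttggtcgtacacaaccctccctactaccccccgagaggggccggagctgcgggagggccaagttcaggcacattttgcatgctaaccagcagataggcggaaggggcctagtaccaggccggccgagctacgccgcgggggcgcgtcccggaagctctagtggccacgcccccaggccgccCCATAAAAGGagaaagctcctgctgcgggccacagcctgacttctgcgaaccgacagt
Dusp1 and Maff, which hold the same element as Btg2, differed between the compounds by -0.11 ± 0.08 and -0.03 ± 0.16, and Dusp5 and Egr2, with a CArG box, by -0.07 ± 0.16 and -0.23 ± 0.09. None of these 4 was called, and all had overlapping libraries.

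Targets of NRF2, the transcription factor of the antioxidant response, were higher with NAT in 15 of 21. The median of 0.08 was 0.04 with GC trends removed and 0.09 without P7C3-A20 replicate 3, and in 1 of the 51 fits, voom without NAT replicate 2, it was -0.0012. NAT libraries lay wholly above in 9, against 13.4% of all tested genes, and wholly below in 2, against 8.39%. Gstm1, a glutathione transferase gene, was at 400.4, 429 and 412 TPM with NAT, 368, 352 and 344 with P7C3-A20 and 371, 360.5 and 350.1 with DMSO. All NAT libraries exceeded the other 6, and the difference was 0.22 ± 0.04, with voom adjusted p-values of 0.0133 and, with GC trends removed, 0.00266. The latter ranged from 0.00184 to 0.076 over the left-out libraries. A second transferase gene, Gsta4, was at 217, 223 and 213 TPM with NAT, 192, 193 and 197 with P7C3-A20 and 208, 208 and 210.0 with DMSO, where P7C3-A20 was the lowest group. Its difference was 0.16 ± 0.03, not called by voom (adjusted p 0.0979). Nqo1, a quinone reductase and the classical NRF2 target, was at 24.6, 26.2 and 28.0 against 20.3, 21.9 and 20.8 TPM, a difference of 0.31 ± 0.06 with a voom adjusted p of 0.0671. Both subunits of the enzyme that starts glutathione synthesis pointed the same way, Gclc at 57.1, 56.2 and 57.5 against 49.5, 53.8 and 48.8 TPM and Gclm at 79.2, 77.1 and 80.0 against 69.9, 72.4 and 63.3, without overlap and without a call. G6pdx, which supplies NADPH, was at 122, 113 and 112 against 105, 107 and 94.6 TPM, a difference of 0.18 ± 0.05. The transferase gene Gstp1 was lower with NAT, at 127, 134 and 130.3 against 135, 147 and 152 TPM, and Cat, Txnrd1 and Fth1 differed by 0.01, 0.04 and 0.02. The core of the antioxidant response element, TGACNNNGC, lay in 4 of the 17 promoters found for this list (G6pdx, Gclm, Prdx1 and Txnrd1) and in 10.16% of all promoters. The Gclm promoter, on the plus strand at chr3:122245307-122245556, is shown because the core begins 134 bases before its start, here in capitals on the opposite strand.
Gclm: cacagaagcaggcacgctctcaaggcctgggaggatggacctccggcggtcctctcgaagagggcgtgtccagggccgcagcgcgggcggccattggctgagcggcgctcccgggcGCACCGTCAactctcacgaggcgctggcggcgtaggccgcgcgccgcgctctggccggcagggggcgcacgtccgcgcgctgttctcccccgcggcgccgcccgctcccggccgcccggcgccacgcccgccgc
Of the 4 genes with the core, Txnrd1 had overlapping libraries and the other three did not.

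For NAD metabolism, on which P7C3-A20 has been reported to act, the compounds were close. Nampt was at 20.7, 19.3 and 22.9 TPM with NAT, 19.6, 19.4 and 19.9 with P7C3-A20 and 18.6, 18.5 and 19.8 with DMSO. NAT replicate 3 was the highest of the 9, and the libraries of both compounds overlapped. The difference was 0.09 ± 0.07, with a 95% interval of -0.06 to 0.23 and a limma-trend adjusted p of 0.54, and it was -0.0016 with GC trends removed. Of the 12 tested genes of NAD synthesis and handling 6 were higher and 6 lower, with a median of 0.01. With GC trends removed 5 were higher and 7 lower, with a median of -0.003. The adenylyltransferase genes Nmnat2 and Nmnat3 differed by -0.05 ± 0.04 and 0.07 ± 0.09, and for Nmnat1 the 95% interval of the difference was -0.22 to 0.22. Nudt12, a hydrolase of NADH, was the member without overlap, at 18.0, 19.0 and 18.9 against 17.1, 17.1 and 15.3 TPM, a difference of 0.17 ± 0.07 that was 0.08 with GC trends removed. Nmrk1, a kinase for nicotinamide riboside, differed by -0.19 ± 0.10 with an interval of -0.40 to 0.02.

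NAD consumers were divided, 8 higher and 7 lower, with a median of 0.01, and 7 and 8 with -0.02 when GC trends were removed. NAT libraries lay wholly below in 5, against 8.39% of all tested genes, and wholly above in 2, against 13.4%. Of the sirtuin deacylases, Sirt2, Sirt4, Sirt6 and Sirt7 lay wholly lower with NAT, by -0.11 ± 0.04, -0.27 ± 0.11, -0.25 ± 0.10 and -0.17 ± 0.11, and by -0.08, -0.24, -0.18 and -0.12 with GC trends removed. Sirt5 went the other way, at 24.7, 19.6 and 21.0 against 18.8, 19.9 and 17.8 TPM with overlap, a difference of 0.19 ± 0.09 that was 0.16 with GC trends removed, and Sirt3 differed by 0.02 ± 0.06. Sirt2, at 249, 257 and 238 against 263, 273 and 267 TPM, was the most abundant, and Sirt1 was near equal at 21.3, 19.9 and 21.4 against 20.6, 20.4 and 20.9. The ADP-ribosyltransferase genes Tnks and Tnks2 lay wholly higher, Tnks at 94.5, 91.0 and 93.0 against 87.7, 82.9 and 81.1 TPM. Their differences were 0.14 ± 0.04 and 0.08 ± 0.03, and 0.10 and 0.01 with GC trends removed. Parp1, the main poly(ADP-ribose) polymerase gene, differed by 0.04 ± 0.04. No gene of either NAD list was called in any of the 4 fits.

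Neuronal genes ran in both directions, with 11 of 26 higher, 15 lower and a median of -0.04. With GC trends removed 9 were higher and 17 lower, with a median of -0.05. NAT libraries lay wholly below in 8, against 8.39% of all tested genes, and wholly above in 2, against 13.4%. The 8 include Calb2, which passed the minimum through P7C3-A20 alone, so that its libraries could not overlap. Snap25, of the vesicle fusion machinery, was at 12.4, 12.5 and 13.4 TPM with NAT, 14.5, 15.4 and 15.2 with P7C3-A20 and 14.3, 13.9 and 14.8 with DMSO, a difference of -0.22 ± 0.06 that was -0.31 with GC trends removed and missed the voom threshold in both (adjusted p 0.139 and 0.0822). Sox4, a factor of new neurons and glial precursors, was at 974, 1014 and 1036 against 1052, 1111 and 1172 TPM and was the member called by voom (difference -0.14 ± 0.05, adjusted p 0.0353), but not with GC trends removed (adjusted p 0.0571). Tubb3, the neuronal tubulin gene, was at 46.9, 46.7 and 42.8 against 51.1, 49.3 and 51.1 TPM, and Stmn3 at 148, 165 and 152 against 169, 168 and 193, both lower without overlap, with differences of -0.15 and -0.19 that were -0.08 and -0.12 with GC trends removed. The neuroblast gene Dcx was at 27.4, 23.9 and 25.0 against 26.7, 26.6 and 21.9 TPM and Map2 at 653, 611 and 648 against 636, 615 and 583, with overlap and differences of 0.02 ± 0.08 and 0.06 ± 0.04. Sox11 lay wholly higher, by 0.10 ± 0.04. C1ql1, a secreted synaptic organizer also made by oligodendrocyte precursors, was at 48.4, 51.5 and 52.9 TPM with NAT, 65.5, 63.1 and 60.3 with P7C3-A20 and 45.9, 48.6 and 49.8 with DMSO. P7C3-A20 stood above both other groups. The difference was -0.30 ± 0.05, and the voom adjusted p went from 0.0133 to 0.117 with GC trends removed.

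Astrocyte genes were higher with NAT in 14 of 22, against 7367 of all 13614 tested genes. Their median was 0.03, which was 0.03 with GC trends removed and 0.003 without P7C3-A20 replicate 3. With GC trends removed 16 were higher and 6 lower. Before the removal NAT libraries lay wholly above in 6, against 13.4% of all tested genes, and wholly below in 2, against 8.39%. Slc1a2, the main glutamate transporter of astrocytes, was at 273, 267 and 274 TPM with NAT, 246, 242 and 195 with P7C3-A20 and 241, 238 and 244 with DMSO. All NAT libraries were the highest and P7C3-A20 replicate 3 the lowest of the 9. The difference was 0.26 ± 0.07, 0.21 with GC trends removed, with voom adjusted p-values of 0.0155 and 0.0258. Slc4a4, a bicarbonate transporter gene, was at 445, 451 and 449.6 against 425, 420.1 and 334 TPM, and Sparcl1 at 1831, 1841 and 1817 against 1735, 1740 and 1328. Here too P7C3-A20 replicate 3 was far below its own group, and neither gene was called. The intermediate filament gene Gfap was at 931, 1031 and 939 TPM with NAT and 928, 927 and 807 with P7C3-A20, a difference of 0.12 ± 0.07. Ttyh1, a chloride channel family gene, was lower, at 595, 628 and 611 against 650.4, 646 and 664 TPM, and Aldoc and Glul differed by 0.00 and -0.01. Of the 17 stem cell and radial glia genes, 10 were higher and 7 lower, with a median of 0.00, and 9 and 8 with GC trends removed, again with 0.00. Ptprz1, a receptor phosphatase of these cells, was called higher by voom (difference 0.15 ± 0.04, adjusted p 0.0311), though not with GC trends removed (adjusted p 0.132). Id4, an inhibitor of differentiation factors, was at 132, 145 and 140.1 against 153, 162 and 152 TPM, a difference of -0.16 ± 0.07 that voom called with GC trends removed alone (adjusted p 0.0398, before 0.0784).

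Cytosolic ribosomal protein genes were lower with NAT in 23 of 25, by very small amounts. The median was -0.08, which was -0.06 with GC trends removed and -0.04 without P7C3-A20 replicate 3, and the members ran from -0.17 to 0.01. NAT libraries lay wholly below in 12, against 8.39% of all tested genes. Voom called 4 of them, against 0.94% of all tested genes, Rpl10a, Rpl37 and Rps2 included, and with GC trends removed Rpl10a alone. Rpl10a was at 354, 375 and 351 TPM with NAT and 388, 405 and 421 with P7C3-A20, a difference of -0.17 ± 0.04. Rpl35, the member of lowest p, was at 405, 399 and 416 against 441, 442 and 449.7 TPM, a difference of -0.13 ± 0.03 that voom did not call (adjusted p 0.0771). Without NAT replicate 1, NAT replicate 3, DMSO replicate 2 or P7C3-A20 replicate 3, voom called none of the list, without NAT replicate 2 or P7C3-A20 replicate 2 it called 2, and without P7C3-A20 replicate 1 it called 8. With GC trends removed it called 2 without P7C3-A20 replicate 1, 1 without DMSO replicate 3 and 0 without any other library. Oxidative phosphorylation genes had 12 higher and 20 lower and a median of -0.03, and 10 and 22 with -0.04 when GC trends were removed. NAT libraries lay wholly below in 9 of them, against 8.39% of all tested genes, and wholly above in 2, against 13.4%.

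In the remaining lists a single member of lowest p stands for each, since medians lay between -0.11 and 0.06. The Notch ligand family gene Dll3 was at 74.0, 76.5 and 77.6 TPM with NAT, 86.3, 93.1 and 109 with P7C3-A20 and 85.1, 91.4 and 92.1 with DMSO, with P7C3-A20 replicate 3 the highest. Its difference was -0.33 ± 0.07, -0.24 with GC trends removed, with voom adjusted p-values of 0.00967 and 0.0258; 13 of 16 Notch pathway genes were lower with NAT, a split that became 8 against 8 with GC trends removed. Spred1, a brake on ERK signalling, was higher with NAT at 181, 184 and 181 against 163, 161 and 149.9 TPM (difference 0.20 ± 0.04, voom adjusted p 0.0257). Ddit4, a stress-induced inhibitor of mTORC1, was lower at 150.5, 153 and 141 against 168, 174 and 169 TPM (difference -0.20 ± 0.04, voom adjusted p 0.0134). Both left the voom calls with GC trends removed, at adjusted p-values of 0.166 and 0.171. Hspe1, the mitochondrial co-chaperonin, was at 221, 209 and 222 TPM with NAT, 244, 244 and 239 with P7C3-A20 and 239, 243 and 244 with DMSO, so that NAT stood below both other groups. The difference was -0.16 ± 0.03, -0.21 with GC trends removed, with voom adjusted p-values of 0.0403 and 0.0214. Lamp2, a lysosomal membrane protein gene, and Cox4i1, a subunit of cytochrome oxidase, were called by voom before GC removal alone, with differences of 0.16 ± 0.04 and -0.13 ± 0.04. Members of lowest p in the lists of sterol synthesis (Sc5d), fatty acid synthesis (Acaca), glycolysis (Pkm), p53 targets (Bbc3), the insulin-like growth factor system (Igfbp3), interferon response (Ifit1), chaperones of the endoplasmic reticulum (Sdf2l1) and the Wnt pathway (Nkd1) differed by 0.18, 0.16, -0.08, -0.16, 0.16, 0.43, -0.19 and -0.21, and voom called none of them.

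Among structural and long non-coding RNAs, 7 of 9 were lower with NAT. Rpph1, the RNA subunit of ribonuclease P, was at 12.6, 21.3 and 15.4 TPM with NAT and 22.5, 22.8 and 27.8 with P7C3-A20, a difference of -0.56 ± 0.16 that voom did not call (adjusted p 0.144). Malat1, a nuclear long non-coding RNA singled out after its values were seen, went the other way. It was at 3469, 2823 and 3986 TPM with NAT, 2474, 2504 and 2220 with P7C3-A20 and 2134, 3333 and 2560 with DMSO. All NAT libraries lay above those of P7C3-A20, while DMSO replicate 2 lay among those of NAT, and the difference was 0.50 ± 0.15 with voom adjusted p-values of 0.0114 and, with GC trends removed, 0.0258. The first ranged from 0.00168 to 0.108 as single libraries were left out. Rn45s, the precursor of ribosomal RNA, was at 13976, 10044 and 9583 TPM with NAT and 14304, 7947 and 14996 with P7C3-A20, with overlap.

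A further group of genes lower with NAT came from the ranking over all genes. Pak3, a Rac-activated kinase gene of neurons, was at 42.4, 41.5 and 42.1 TPM with NAT, 47.8, 47.0 and 44.2 with P7C3-A20 and 49.4, 50.1 and 48.5 with DMSO. NAT was the lowest group, and the difference was -0.14 ± 0.04 and -0.23 with GC trends removed. With GC trends removed voom called Pak3 whichever library was left out, at adjusted p-values of 0.000889 to 0.0302. Before GC removal voom called Pak3 in 4 of 9 such refits, with adjusted p-values of 0.00752 to 0.18. The row 3110035E14Rik was at 27.3, 25.0 and 27.1 TPM with NAT, 32.3, 32.7 and 32.7 with P7C3-A20 and 26.4, 29.8 and 27.6 with DMSO, a difference of -0.29 ± 0.06 with a voom adjusted p of 0.00229 after GC removal. Aspdh, an aspartate dehydrogenase domain gene, was at 15.8, 17.9 and 17.4 TPM with NAT, 22.5, 23.0 and 24.4 with P7C3-A20 and 17.7, 18.1 and 18.9 with DMSO, where P7C3-A20 stood above both other groups. It differed by -0.43 ± 0.06 (95% interval -0.57 to -0.29), with voom adjusted p-values of 0.0403 and, with GC trends removed, 0.121. The metabolic genes Dgat1, of triglyceride synthesis, and Amdhd2, of amino sugar breakdown, differed by -0.21 ± 0.04 and -0.24 ± 0.04 and were called by voom before GC removal alone. Rsph9, a component of motile cilia, was at 12.1, 13.4 and 13.0 TPM with NAT, 17.7, 15.6 and 20.1 with P7C3-A20 and 15.9, 15.9 and 16.3 with DMSO, a difference of -0.43 ± 0.08 that voom did not call (adjusted p 0.0728). The 5 ependymal markers summed to 20.3 to 22.3 TPM with NAT and 23.5 to 25.6 with P7C3-A20, without overlap. Of these, 2 passed the minimum, Foxj1 and Ccdc153, and Pifo was at 0 in all 6 libraries. Most of the sum was Foxj1, at 18.47, 20.62 and 19.98 TPM with NAT and 21.43, 21.18 and 23.55 with P7C3-A20. Ccdc153 overlapped, and Rarres2, which missed the minimum, was lower with NAT. The sum therefore mainly describes Foxj1 and not ependymal cells as a whole. The part of these markers in the difference of Rsph9 was not tested. Hmgn3 and Psma3 were named by the GC-corrected ranking, with differences of -0.18 and -0.17 there. The rows C330027C09Rik and Tcf19 lay wholly higher with NAT, by 0.28 ± 0.05 and 0.23 ± 0.06, and by 0.18 and 0.27 with GC trends removed. For C330027C09Rik the voom adjusted p went from 0.0125 to 0.0844 with that removal, and Tcf19 was called in neither voom fit.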

How the data were processed

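RNA sequencing libraries were built with a TruSeq RNA kit, per the labels' protocols, which do not state that strand was kept. The deposited table gives TPM, made by the authors by scaling each library to the same total. Bowtie 0.12.2 and the builds mm8 and mm9 appear, per the submitters' processing notes, without a role. Neither counter nor annotation is stated there. As deposited, 27 gene names had become dates.

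Gene rows with 1 TPM or more in at least 3 of the 6 NAT and P7C3-A20 libraries were tested. limma-trend (limma 3.58.1, R 4.3.3) was fitted to log2(TPM + 1) of all 9 libraries, with 6 residual degrees of freedom, and the NAT minus P7C3-A20 contrast was taken, two-sided, with Benjamini-Hochberg adjustment and a threshold of 0.05. Differences are on the log2(TPM + 1) scale, which understates those of low genes. GC content came from the longest GENCODE transcript of each name (98.3% matched), and the trend was a spline with 5 degrees of freedom. Whole reads were recovered for 100% of 19302 rows (tolerance 0.001 reads) and entered voom only; precision at low levels is limited by these reads. No pair of replicates agreed within counting noise. Chi-square per gene was 4.99 to 10.4 between P7C3-A20 libraries, against 1.89 to 3.37 for NAT and 2.1 to 3.75 for DMSO. The fits shared 1 spread over the groups, so SEs and intervals do not show the wider spread of P7C3-A20.

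Genes were named by rule: without overlap and at 2 TPM or more, the 8 of lowest p in each direction, the 6 likewise with GC trends removed, the member of lowest p in each list and up to 3 more in the immediate early, NAD, neuron, astrocyte, oligodendrocyte, replication and mitosis lists, plus Nampt, Fosb, Btg2 and C1ql1. Other list members are shown as examples chosen after their values were seen. The members and lists were chosen with earlier results of these data known. Alternatives covered scaling, filter, pseudocount, replicate block and left-out libraries. Voom refits without a library, on thinned reads and without Rn45s were added after seeing the data. Values of some list members are not reported here. The promoters are from RefSeq. Python 3.11.15 with pandas 2.3.3 and numpy 2.4.6 prepared the tables and matplotlib 3.10.9 the plots.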

Additional observations from a re-analysis of the deposited data

How the results depend on the processing

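No gene was called by limma-trend on TPM or with GC trends removed, and this held with GC and length trends removed, quantile normalization, a pseudocount of 0.1, no filter, a minimum of 5 TPM and robust empirical Bayes. Fitting the 6 compared libraries alone called 5 genes (1 higher, 4 lower with NAT): Nr4a1 (adjusted p 0.027) and the rows Mir344b, Mir3097, Snord1b and Snord90, which hold 0 to 3 reads in each of these libraries. With the replicate number as a block 1 gene was called, Fosb, lower with NAT (log2 difference -0.49, adjusted p 0.0374), and 0 with the block and GC trends removed. Deviations of NAT and P7C3-A20 libraries with the same number correlated at 0.0402, 0.0307 and 0.0229, and each NAT library correlated best with its own number. Over all genes the numbers thus gave at most a weak pairing, which may be stronger in single genes. For Mki67, Top2a, Cenpf and Kif11, replicate 1 was the highest library of each group. With single libraries left out the counts of calls were 0 to 2 (0 to 1 higher, 0 to 2 lower), in both TPM fits, and the called rows were Snord1b, Snord90 and Mir1932. voom called 271 (143 higher, 128 lower), 257 on reads thinned to the shallowest library (142 and 115), 317 without Rn45s (147 and 170) and 61 with GC trends removed (35 and 26). With single libraries left out these ran from 4 to 760 for voom (1 to 326 higher, 3 to 434 lower) and, with GC trends removed, from 2 to 168 (1 to 90 and 1 to 78). The cause was not tested. Of the genes named by the rule, 2 changed sign. Among the examples shown beside them Fabp7, Dcx, Sirt1, Sirt3, Cat, Fosl2 and Maff, all near 0, also changed sign with GC trends removed. The difference of Nampt was -0.0016 with GC trends removed, with or without the block, -0.000342 with GC and length trends removed and -0.0070 in voom with GC trends removed; in the GC-corrected fit it ran from -0.0552 to 0.0413 with single libraries left out, above 0 without NAT replicate 1 (0.0155), NAT replicate 2 (0.035) or P7C3-A20 replicate 3. Pkm ran there from -0.0397 to 0.0025, above 0 without P7C3-A20 replicate 3. Of the other values under an alternative, 1562 of the TPM result and 862 of the GC-corrected one kept direction and side of the threshold, and 134 and 22 kept direction and passed it where the reported value did not.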
